A study of Mus musculus with 4 samples.

Results

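Nucleotidases and nucleotide phosphohydrolases, among them the ectoenzyme CD73, were followed in RNA-seq of 4T1 cells with and without a knockout of Dhodh. The 8 genes were taken by name out of 16695 genes in the table: Nt5e, Nt5c, Nt5c2, Nt5c3, Nt5c3b, Nt5m, Samhd1 and Dctpp1. 4T1 is a mouse breast cancer cell line, and both groups consist of it: 2 libraries are wild type (WT) and 2 carry the genotype KO, with DHODH as the targeted gene. DHODH, dihydroorotate dehydrogenase, makes orotate in the de novo synthesis of pyrimidines, and the question here was how the genes of nucleotide breakdown differ between the genotypes. Neither a time point nor a treatment is given, and the labels do not say whether the KO cells are 1 clone or whether the 2 libraries of each genotype were grown apart. The p-values therefore cover the variation among these 4 libraries and no more.

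5′-nucleotidases remove the phosphate from nucleoside monophosphates and so turn nucleotides back into nucleosides, which can leave the cell or be phosphorylated again by kinases. CD73 does this outside the cell, where the product of AMP is adenosine, a signal that dampens immune responses in tumours. SAMHD1 and DCTPP1 act on deoxynucleoside triphosphates, which are used in DNA synthesis.

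Values are FPKM, reads scaled to gene length and to the reads of the library. Differences are given as log2 fold changes with their SE, taken as KO minus WT after 1 was added to each FPKM, and adjusted p-values are Benjamini-Hochberg values from limma over 10170 genes with a mean of at least 1 FPKM, called under 0.05. At low FPKM the added 1 makes a log2 fold change smaller in size than the ratio of mean FPKM implies. In bulk RNA, fewer cells of a type and less RNA per cell cannot be told apart. The reads recovered from the FPKM steps, which cover 98.4% of genes and are lower bounds, summed to at least 23556758 in each library. Dhodh itself lay at 10.9 and 10.3 FPKM in the WT libraries against 9.67 and 8.69 FPKM in the KO libraries (log2 fold change -0.19 ± 0.068, adjusted p = 0.0425). Its RNA thus checks the labels only weakly, and the call was lost in 7 of 12 other settings. Leaving out KO replicate 2 gave -0.12 on the log2 scale (adjusted p = 0.200), WT replicate 1 gave -0.16 (0.170) and WT replicate 2 gave -0.22 (0.0597). On the list of mammary epithelial markers, 6 of 7 genes lay above 1 FPKM in all libraries, with a summed level of 1892 to 1911 FPKM in WT and 1819 to 1823 FPKM in KO. KO replicate 2 stood apart: all 8 heart muscle markers were highest there, Myh6, Actc1, Tnni3 and Nppa were at 0 in the other 3 libraries, and the 7 markers not above 1 FPKM throughout summed to 52.7 FPKM against at most 0.375 FPKM elsewhere. Kidney markers summed to 9.73 FPKM in it and to at most 0.0176 FPKM elsewhere, and the summed levels of the skeletal muscle (11.1 FPKM against at most 2.68), liver (33.2 against at most 22.9), fibroblast (10.2 against at most 3.12), endothelial (1.085 against at most 0.1175) and immune lists (3.61 against at most 0.387) were also highest there. Single genes were highest there in 5 of 6, 4 of 5, 5 of 6, 4 of 4 and 2 of 5 cases. The liver and fibroblast sums include 2 genes and 1 gene above 1 FPKM in all libraries. Without these, KO replicate 2 held 4.83 FPKM for liver against at most 3.56 elsewhere, and 7.8 FPKM for fibroblast against at most 0.360. The part of these transcripts in the results was not tested.

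RefSeq promoter windows (GRCm38.p6) were on hand for all 8 genes. They are shown for the 3 genes with a single annotated start and the largest falls, and for Nt5c3, which did not pass the test, so that members that fell can be read beside one that was not called. The windows hold the 250 bases before the start, written 5′ to 3′ on the strand of the gene. They lie at chr9:88327359-88327608 on the plus strand for Nt5e and, on the minus strand, at chr11:115491815-115492064 for Nt5c, chr2:157135097-157135346 for Samhd1 and chr6:56901887-56902136 for Nt5c3. Capitals mark the GC box GGGCGG on either strand, the core of the site that SP family factors bind.
Nt5e: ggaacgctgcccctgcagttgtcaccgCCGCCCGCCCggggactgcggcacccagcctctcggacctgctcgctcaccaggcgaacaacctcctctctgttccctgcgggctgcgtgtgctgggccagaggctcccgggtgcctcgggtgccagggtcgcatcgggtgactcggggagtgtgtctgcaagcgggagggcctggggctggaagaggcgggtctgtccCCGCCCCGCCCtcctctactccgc
Nt5c: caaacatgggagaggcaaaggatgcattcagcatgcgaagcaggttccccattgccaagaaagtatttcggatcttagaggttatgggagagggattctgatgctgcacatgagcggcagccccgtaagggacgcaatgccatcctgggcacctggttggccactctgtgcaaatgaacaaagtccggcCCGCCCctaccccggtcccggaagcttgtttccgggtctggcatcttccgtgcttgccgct
Samhd1: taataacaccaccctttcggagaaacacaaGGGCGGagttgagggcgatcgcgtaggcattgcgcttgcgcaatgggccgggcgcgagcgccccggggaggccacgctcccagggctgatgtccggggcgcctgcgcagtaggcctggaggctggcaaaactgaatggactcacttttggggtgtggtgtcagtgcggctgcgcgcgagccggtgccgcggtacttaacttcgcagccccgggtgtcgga
Nt5c3: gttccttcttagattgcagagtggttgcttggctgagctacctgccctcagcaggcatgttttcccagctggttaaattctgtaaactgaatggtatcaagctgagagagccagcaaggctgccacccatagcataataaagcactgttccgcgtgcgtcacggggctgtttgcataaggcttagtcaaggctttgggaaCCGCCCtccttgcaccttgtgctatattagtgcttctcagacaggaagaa

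The Nt5e window held 4 matches, which overlap in pairs, and the Nt5c, Samhd1 and Nt5c3 windows held 1 each. A GC box was found in a window of 7 of the 8 genes, all but Nt5c3b, against 32.7% of 32851 windows of the same length. G and C made up 72.0% of the window in Nt5e, 65.6% in Samhd1, 56.8% in Nt5c and 50% in Nt5c3, against a median of 52.4%, and Nt5c2 had 7 windows in which to find a match. The letters ACGTG, the core bound by hypoxia-inducible factors, were found in windows of Nt5c2, Nt5m and Dctpp1 (16.6% of all windows). The TATA box TATAAA matched in none of the 8 genes (12.4% of all windows), and the letters CCAAT, the CCAAT box, matched in Nt5c2 and Dctpp1 (33.8%). All motifs were searched on both strands. A match is no more than these letters in this window, and Nt5c3, which was not called, shares the GC box with members that fell.

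Of the 8 genes, 7 fell in KO and none rose. Among all genes tested, 64.7% were called, 29.1% lower and 35.6% higher. All 8 passed the filter on low values, and in both genotypes the lowest mean was above 6 FPKM. Both KO values lay below both WT values for the same 7 genes, as they did for 37.9% of all genes tested. Their median log2 fold change was -0.30, and that of all genes tested was 0.039. The falls were of very different size: Nt5e was 2.44-fold higher in WT, Nt5c and Nt5c2 1.58-fold and 1.61-fold, Samhd1 1.29-fold, and Dctpp1, Nt5m and Nt5c3b between 1.11-fold and 1.18-fold. The count of 7 became 5 without WT replicate 1, WT replicate 2 or KO replicate 1, and 6 without KO replicate 2, with Nt5c3b lost each time and Nt5m in all but the last of these fits.

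**Figure D1:**
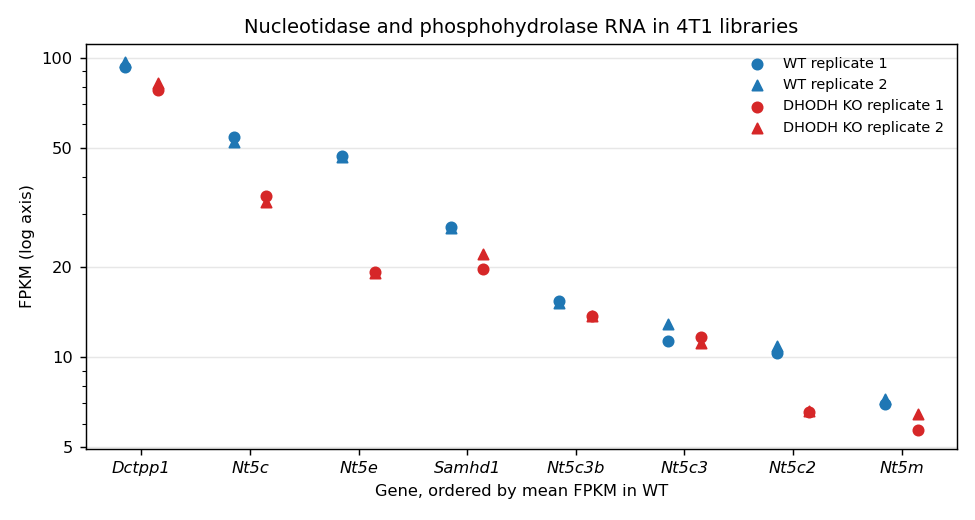
FPKM of each gene in each library on a log axis, WT in blue and KO in red, circles for replicate 1 and triangles for replicate 2, ordered by mean FPKM in WT. The WT and KO points are farthest apart for Nt5e (46.6 and 47.0 against 19.1 and 19.2 FPKM), and they overlap only for Nt5c3.

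Nt5e (Entrez Gene 23959) encodes CD73, the glycolipid-anchored enzyme on the cell surface that hydrolyses AMP to adenosine. Its level was 47.0 FPKM in WT replicate 1 and 46.6 FPKM in WT replicate 2, against 19.2 and 19.1 FPKM in the KO libraries. Both KO libraries thus held well under the lowest WT value, by 27.4 FPKM, while replicates differed by 0.840% of their mean in WT and by 0.159% in KO. Gaps this small between 2 libraries do not measure the spread. At least 5775 reads in each WT library and 2583 in each KO library lay behind these values. The mean fell from 46.8 ± 0.278 to 19.2 ± 0.0215 FPKM (SD, n = 2 per genotype), 59.0% lower (log2 fold change -1.24 ± 0.041, 95% interval -1.34 to -1.15, adjusted p = 1.5e-06). Ordered by log2 fold change from the lowest, Nt5e stood at place 53 of 10170, so that 0.521% of genes tested fell at least as far. It is also the member that passed a test for a log2 fold change of at least 1 (adjusted p = 0.0215), which 0.413% of all genes passed downward. Leaving out any single library moved its log2 fold change only between -1.25 and -1.24, a range that follows from the closeness of the replicates.

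By the rule of nearest pattern over the 4 libraries, the 5 genes most like Nt5e among 7652 with a mean of at least 5 FPKM were Aurka, Itga3, Cenpf, Pcyt1b and Uchl3. The measure is the Euclidean distance between log2(FPKM + 1) values centred on each gene's mean, and it ran from 0.0304 for Aurka to 0.0889 for Uchl3. Aurka, a mitotic kinase gene, measured 55.1 and 54.5 FPKM in WT and 22.1 and 22.7 FPKM in KO. Itga3, an integrin gene, measured 423 and 418 FPKM in WT and 182 and 176 FPKM in KO. With 2 libraries per genotype, likeness amounts to little more than a fold change of the same size.

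Nt5c (Entrez Gene 50773) encodes the cytosolic 5′,3′-nucleotidase that acts on deoxynucleoside monophosphates such as dUMP and dTMP. WT libraries held 54.2 and 52.3 FPKM, and KO libraries 34.4 and 33.1 FPKM. The genotypes did not overlap, and the fall from 53.3 ± 1.33 to 33.8 ± 0.963 FPKM was 36.6% (log2 fold change -0.64 ± 0.043, adjusted p = 2.2e-05). Its mitochondrial relative Nt5m (Entrez Gene 103850), which acts on the same kind of substrate inside the organelle, was the lowest of the 8. It measured 6.96 and 7.27 FPKM in WT and 5.69 and 6.44 FPKM in KO, from at least 280 reads per library. Its KO libraries differed by 12.3% of their mean, nearly as much as the genotypes (14.7% lower in KO, log2 fold change -0.20 ± 0.075, adjusted p = 0.0485). That call was lost without WT replicate 1 (adjusted p = 0.0776), WT replicate 2 (0.171) or KO replicate 1 (0.233), with no filter (0.133) and with voom on recovered reads (0.127), and was kept without KO replicate 2 (log2 fold change -0.28, adjusted p = 0.0200), over a range from 0.0200 to 1 in all settings.

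The ratio of Nt5c to Nt5m FPKM was 7.79 and 7.19 in WT and 6.05 and 5.14 in KO. Both KO ratios lay below both WT ratios, though an exact two-sided permutation test of 2 against 2 libraries cannot go below the p = 0.333 it gave. Exons of Nt5m share 2.59% of their bases with Cops3 on the opposite strand in GENCODE M21. Cops3, a COP9 signalosome subunit gene, measured 57.9 and 56.6 FPKM in WT and 48.7 and 49.8 FPKM in KO. Whether counting used the strand is not stated, and without it reads of the shared stretch cannot be told apart.

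Nt5c2 (Entrez Gene 76952) encodes the cytosolic purine 5′-nucleotidase, which prefers IMP and GMP. WT libraries held 10.3 and 10.9 FPKM, and KO libraries 6.56 and 6.63 FPKM. The KO libraries lay within 1.0% of each other and well below WT, 37.8% lower on average (log2 fold change -0.61 ± 0.061, adjusted p = 1.3e-04). In percent its fall was close to that of Nt5c (36.6%), from a much lower level in WT. An exon of Ina, a neuronal gene at no more than 0.0266 FPKM in any library, overlaps 4.13% of its exon bases. On the opposite strand, Armc7 (1.15 to 2.15 FPKM) overlaps 4.21% of the exon bases of Nt5c. Likewise Fkbp10 (at most 0.143 FPKM) overlaps 5.64% of those of Nt5c3b.

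Nt5c3 (Entrez Gene 107569) encodes the pyrimidine 5′-nucleotidase that hydrolyses UMP and CMP and is induced by interferon in human cells. It measured 11.3 and 12.9 FPKM in WT and 11.7 and 11.1 FPKM in KO, so that the genotypes overlapped. The difference was not called (log2 fold change -0.08 ± 0.071, 95% interval -0.25 to 0.087, adjusted p = 0.353), and the WT libraries differed by 12.6% of their mean, more than the genotypes (5.93%). The interval includes a fall as large as that of Nt5m or Nt5c3b, so likeness of the genotypes is not shown. Nt5c3b (Entrez Gene 68106), whose product acts on 7-methylguanosine monophosphate from broken-down mRNA caps, measured 15.5 and 15.1 FPKM in WT and 13.8 and 13.7 FPKM in KO. Its replicates lay close together and the genotypes did not overlap, but the fall was the smallest of those called (10.2%, log2 fold change -0.14 ± 0.050, adjusted p = 0.0357). The call was lost without any 1 of the 4 libraries (adjusted p from 0.0801 to 0.169), and the log2 fold change stayed between -0.16 and -0.13 in those fits. The ratio of Nt5c3 to Nt5c3b was 0.735 and 0.852 in WT and 0.848 and 0.811 in KO, with the groups overlapping.

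Samhd1 (Entrez Gene 56045) encodes the triphosphohydrolase that cleaves deoxynucleoside triphosphates to deoxynucleosides and restricts retroviruses in non-dividing cells. It measured 27.1 and 26.9 FPKM in WT and 19.7 and 22.1 FPKM in KO. WT replicates agreed to 0.701% and KO replicates differed by 11.4%, yet the groups did not overlap, and the mean fell by 22.7% (log2 fold change -0.36 ± 0.060, adjusted p = 0.00153). The higher KO value was in KO replicate 2, the library with transcripts of other tissues, and the log2 fold change was -0.44 without it and -0.28 without KO replicate 1. On the list of immune markers, the summed level was 0.0716 and 0.140 FPKM in WT, 0.387 FPKM in KO replicate 1 and 3.61 FPKM in KO replicate 2. Of the 5 immune genes in the table, 2 were highest in KO replicate 2, and the part of such transcripts in the Samhd1 value was not tested.

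Dctpp1 (Entrez Gene 66422) encodes the pyrophosphatase that turns dCTP into dCMP and clears modified cytosine nucleotides. It was the most abundant of the 8 in every library, at 92.9 and 96.4 FPKM in WT and 78.1 and 82.5 FPKM in KO. Both KO values were lower than both WT values, and the fall of 15.1% was called (log2 fold change -0.23 ± 0.042, adjusted p = 0.00213). In size it was near that of Nt5m, and it was called in 11 of 12 other settings, against 6 of 12 for Nt5m. At least 1866 reads per library lay behind it, and replicates differed by 3.66% of their mean in WT and by 5.44% in KO.

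**Figure D2:**
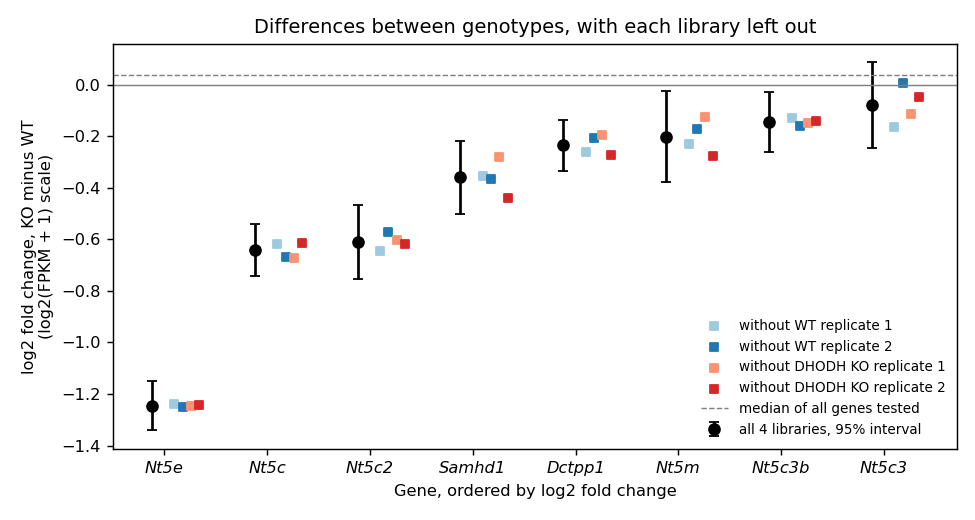
Log2 fold change of each gene, KO minus WT, with all 4 libraries (black, 95% interval from limma) and with each library left out (squares); the dashed line is the median of all genes tested. Nt5e stays between -1.25 and -1.24, whereas Nt5c3 moves from -0.16 to 0.0049 when WT replicates are left out.

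Summed over the 8 genes, the level was 265 and 268 FPKM in WT and 189 and 195 FPKM in KO, 28.1% lower. Nt5e made up 36.9% of that fall, and without it the sum was still 218 and 222 FPKM in WT against 169.9 and 175.5 FPKM in KO, 21.5% lower. The share of Nt5e went from 17.5% ± 0.248 to 9.98% ± 0.216 of the sum, while that of Dctpp1 went from 35.5% ± 0.627 to 41.9% ± 0.753 (SD, n = 2 per genotype). In WT the order of levels was Dctpp1, Nt5c, Nt5e, Samhd1, Nt5c3b, Nt5c3, Nt5c2 and Nt5m. In KO it was the same but for Nt5e, which dropped behind Samhd1. Neighbours in the WT order differed beyond the spread of their replicates, apart from Nt5c3 and Nt5c2, whose values of 11.3 and 10.9 FPKM in the nearest libraries lay closer than the WT replicates of Nt5c3. In KO, Samhd1 and Nt5e were also close, at 19.7 and 19.2 FPKM in KO replicate 1, as were Nt5c2 and Nt5m, at 6.63 and 6.44 FPKM in KO replicate 2.

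**Figure D3:**
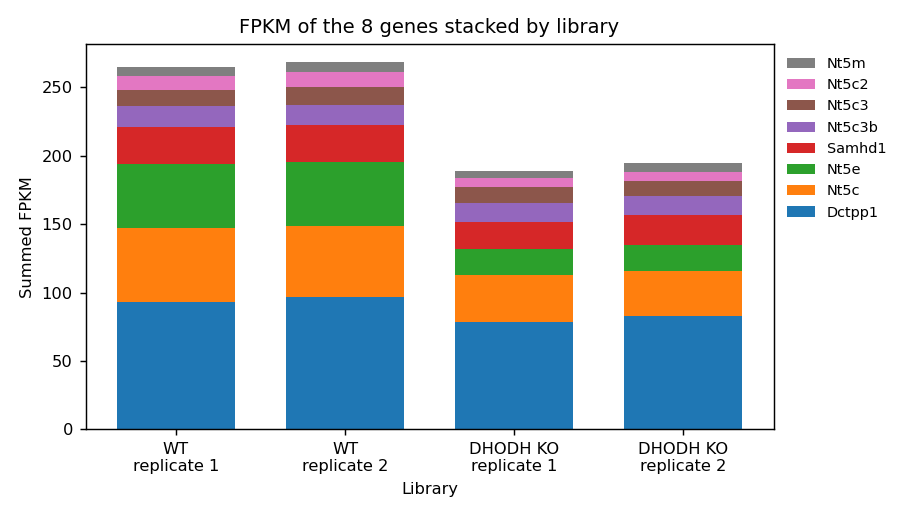
FPKM of the 8 genes stacked for each library. The columns reach 265 and 268 FPKM in WT and 189 and 195 FPKM in KO, and the Nt5e segment shrinks from 17.5% to 9.98% of the column.

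The authors' annotation column places 6 of the 8 genes in purine metabolism, 7 in pyrimidine metabolism and 4 in nicotinate and nicotinamide metabolism. Samhd1 is in none of these. Of 68 tested purine metabolism genes, 30 were lower and 20 higher in KO, at a median difference of -0.13 on the log2 scale, and Nt5e had the largest fall of them. Of 42 tested pyrimidine metabolism genes, 21 were lower and 8 higher (median -0.15), and Nt5e was at place 3 from the lowest. Of 24 tested nicotinate genes, 8 were lower and 10 higher (median 0.15). Among all genes tested, 29.1% were lower and 35.6% higher. The counts of the 3 groups include the members and are descriptions of the annotation's groups.

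CD73 works between enzymes that supply AMP and proteins that sense, import or break down adenosine. Of 8 other surface hydrolases of nucleotides in the table, Entpd3 was the 1 that passed the filter on low values, at 2.01 and 2.86 FPKM in WT and 3.04 and 3.16 FPKM in KO, and it was not called (adjusted p = 0.0974). Entpd1, which encodes CD39, the enzyme known for making the AMP that CD73 uses, was listed at 0 in 3 libraries and at 0.0565 FPKM in KO replicate 2. Entpd3, Entpd1 and Enpp1 were named after their values were seen. A count of 0 in a library allows up to 3 reads, and such limits cover counting error alone. Enpp1, which releases AMP from ATP, measured 0.513 and 0.363 FPKM in WT and 0.558 and 0.50 FPKM in KO, with overlapping groups. In the fit with no filter, 4 of 29 list genes of low level were called, all of them higher in KO and named after their values were seen: Adora1, described with the receptors, Cd38, Alpl and Entpd8. Over all 16695 genes, 2382 were called lower and 2919 higher in that fit. Entpd8 was listed at 0 in WT and at 0.0939 and 0.0625 FPKM in KO (log2 fold change 0.11 ± 0.020, adjusted p = 0.0270). Its KO values rested on as few as 3 and 2 recovered reads, where a count of 0 allows up to 3. Cd38, which encodes an enzyme that consumes NAD, measured 0.517 and 0.402 FPKM in WT and 1.45 and 1.29 FPKM in KO (log2 fold change 0.70 ± 0.071, adjusted p = 0.00809). Alpl, the tissue-nonspecific alkaline phosphatase gene, measured 0.253 and 0.265 FPKM in WT and 0.553 and 0.775 FPKM in KO (0.40 ± 0.078, adjusted p = 0.0308). By level, Nt5e was thus far above the other surface hydrolases listed in both genotypes.

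Of 6 tested genes of adenosine receptors, transport and breakdown, 5 fell and none rose (median log2 fold change -0.47), against 29.1% and 35.6% of all genes tested. Adk, which encodes adenosine kinase, went down from 6.58 ± 0.351 to 3.51 ± 0.140 FPKM (a log2 fold change of -0.75 ± 0.074, adjusted p = 1.3e-04). The equilibrative transporter gene Slc29a2 fell by 0.44, and the purine nucleoside phosphorylase gene Pnp by 0.57 on the log2 scale. Slc29a1, named after its values were seen, is the main equilibrative transporter gene here at 25.2 and 25.5 FPKM in WT and 25.7 and 27.4 FPKM in KO, and it was not called (adjusted p = 0.264). Of the adenosine receptors, none passed the filter. Adora1, also named after its values were seen, encodes the A1 receptor and measured 0.157 and 0.241 FPKM in WT and 1.64 and 1.87 FPKM in KO, from at least 30 and 45 reads against 333 and 380. Its groups lay far apart, with a mean 8.81-fold higher in KO, and in the fit with no filter its log2 fold change was 1.20 ± 0.072 (adjusted p = 0.00367). Adora2a, Adora2b and Adora3, again named after their values were seen, did not exceed 0.0541 FPKM in any library.

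**Figure D4:**
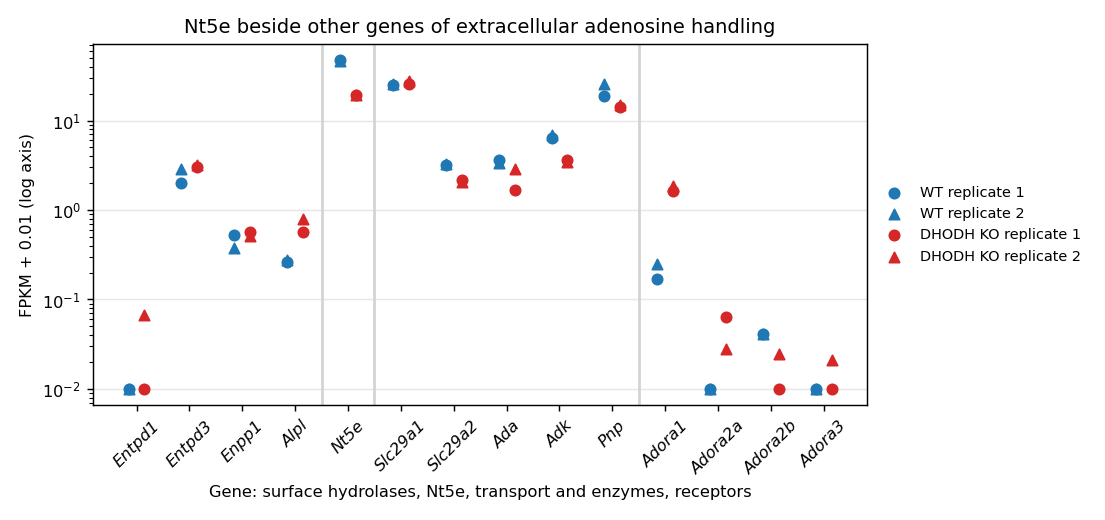
FPKM + 0.01 on a log axis for Nt5e, 4 other surface hydrolase genes, adenosine transporter and enzyme genes and the 4 adenosine receptor genes, by library; genes at 0 sit at 0.01. Nt5e lies above all other genes shown in WT (46.6 and 47.0 FPKM) and falls below Slc29a1 in KO, and Adora1 is the receptor above 1 FPKM in KO.

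Among the other genes of the 5′-nucleotidase family, 2 of 3 tested fell. All counts in this paragraph stand beside 29.1% lower and 35.6% higher among all genes tested. Nt5dc1, whose product carries a 5′-nucleotidase domain, measured 5.93 and 5.15 FPKM in WT and 2.56 and 2.30 FPKM in KO (log2 fold change -0.93 ± 0.091, adjusted p = 1.2e-04), and Nt5dc3 fell by 0.24 on the log2 scale. Nt5c1a and Nt5c1b, which encode AMP-preferring cytosolic nucleotidases and were named after their values were seen, did not exceed 0.0538 FPKM in any library. Of 4 tested nucleoside diphosphatases of the endoplasmic reticulum, Golgi and lysosome, Entpd6 and Entpd7 fell by 0.53 and 0.54 and Entpd5 rose by 0.49 (log2 scale). Of 7 tested hydrolases that clear damaged or unwanted nucleotides, 3 fell and 1 rose. Nudt1, which removes oxidised purine nucleotides, fell by 0.61 and Nudt2 by 0.22 on the log2 scale, and Nudt9 rose by 0.20. Dut, the dUTPase gene, named after its values were seen, was not called (45.3 and 49.9 against 40.5 and 44.8 FPKM, adjusted p = 0.0683).

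Of 10 tested kinases of pyrimidine and deoxynucleosides and of their monophosphates, 3 were lower and 4 higher (median log2 fold change 0.13), shares near the 29.1% and 35.6% of all genes tested. On the log2 scale the nucleoside kinase genes Uck2 and Tk1 fell by 0.64 and 0.51, and Cmpk2, which encodes a kinase of monophosphates, fell by 2.13. Cmpk2 measured 4.67 and 4.00 FPKM in WT and 0.117 and 0.324 FPKM in KO. By the ratio of mean FPKM it was 19.7-fold higher in WT, more than its log2 fold change after the added 1 implies. The 4 higher ones were named after their values were seen. Tk2 and Dguok, kinases of mitochondrial deoxynucleosides, rose by 0.27 and 0.48, and Dck and Uck1 rose by 0.24 and 0.23. Downstream of the nucleotidases, Upp1, the uridine phosphorylase gene, fell by 1.56 on the log2 scale and the cytidine deaminase gene Cda rose by 0.70, and the other 6 genes of pyrimidine nucleoside and base breakdown lay below the filter. Around the substrates of NT5C2, 3 of 9 tested genes fell and 3 rose: Impdh2, of GMP synthesis, fell by 0.27, whereas Ampd3, which makes IMP from AMP, rose by 0.85 and Xdh, the xanthine dehydrogenase gene, by 0.47 on the log2 scale. All 5 cyclin and kinase genes listed as able to phosphorylate SAMHD1 were called, 3 lower and 2 higher, where 64.7% of all genes tested were called. Cdk1 and Ccna2 fell by 0.42 and 0.34, and Ccne2 rose by 1.21 on the log2 scale. Over the 9 lists 22 of 47 tested genes fell and 12 rose, against 29.1% and 35.6% of all genes tested.

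**Figure D5:**
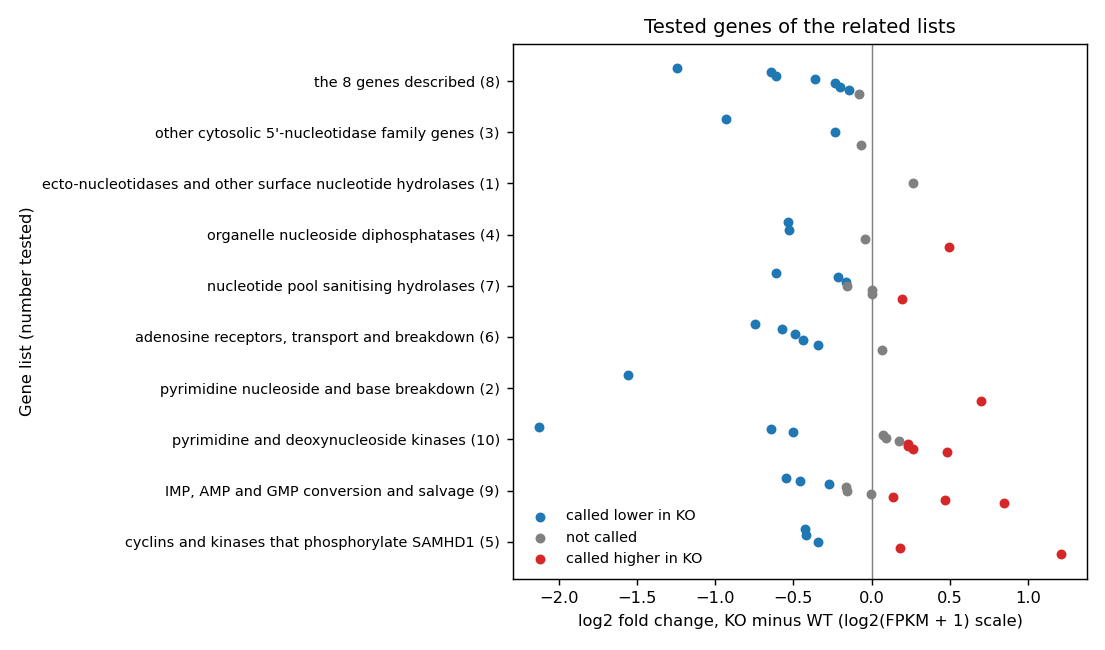
Log2 fold change, KO minus WT, of every tested gene of the 8 described and of the 9 related lists, with the number tested in brackets; blue was called lower in KO, red higher and grey neither. The 8 genes, the adenosine list, the other 5′-nucleotidase family list and the surface hydrolase list, with 1 gene tested, hold no red point. The remaining lists hold both red and blue points. Adora1, called higher in the fit with no filter, lies below the filter and is not shown.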

How the data were processed

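Total RNA of 4T1 cells was taken with TRIzol and made into Illumina libraries, per the labels' protocols. Values are FPKM as deposited by the authors, in 1 table with a column for each of the 4 samples, matched by name. The tools named are fastp and HTSeq and the build GRCm39, per the submitters' processing notes. The sources used here name no aligner, annotation or strand setting. No files of counts were used.

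Whole reads were recovered from the FPKM steps for 98.4% of 16695 genes (up to 20000 reads, tolerance 0.002 of a read); a common factor of a gene's counts is lost, so reads, and their sums, are lower bounds.

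limma-trend (limma 3.58.1, R 4.3.3) was fitted on log2(FPKM + 1), without covariates, for 10170 genes whose mean FPKM reached 1, and checked on simulated data. Few genes were changed in the simulated data, whereas 64.7% were called here, so that check cannot show how many of these calls are right. Folds are ratios of mean FPKM. The 12 alternatives were a pseudocount of 0.1, no filter, TPM or median-ratio scaling, no trend, a fold threshold, the replicate block, voom on recovered reads and the fits without each library. No set test was run.

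The members and lists were chosen with earlier results of these data known. Named are the 8 members, Dhodh, up to 3 called genes with the smallest adjusted p per list, and the 5 genes nearest Nt5e. Others are marked in the text, except genes that overlap a member and the defining markers of other tissues. Exon overlaps are from GENCODE M21 (GRCm38) and promoters from RefSeq. Tables and figures were made in Python 3.11.15 (pandas 2.3.3, NumPy 2.4.6, Matplotlib 3.10.9).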

Additional observations from a re-analysis of the deposited data

How the results depend on the processing

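Nt5e was called lower in all 12 alternatives (log2 fold change -1.31 to -1.24), and Nt5c, Nt5c2, Samhd1 and Dctpp1 in 11 of 12. The exception was the test for a log2 fold change of at least 1, which left 1 of the 7 members called lower, and 2 lower and 0 higher of the list genes. There, with fold changes as reported, Nt5c (-0.64), Nt5c2 (-0.61), Samhd1 (-0.36), Dctpp1 (-0.23), Nt5m (-0.20), Dhodh (-0.19) and Nt5c3b (-0.14) were not called. Nt5m was also not called with no filter (-0.20) or voom (-0.25), nor Dhodh with no filter (-0.19), TPM (-0.20) or no trend (-0.19). Without single libraries, log2 fold changes ran from -0.16 to -0.13 for Nt5c3b, from -0.28 to -0.13 for Nt5m and from -0.26 to -0.12 for Dhodh. Nt5c3, not called in any setting, changed sign without WT replicate 2 (0.0049, adjusted p = 0.964). The number of members called lower was 5 to 7 in all other settings. Replicate numbers are shared by the genotypes, and deviations of same-numbered libraries correlated at 0.0463 across genes. This value cannot decide whether same-numbered libraries were handled together, because each genotype has only 2 libraries. Fitted with the replicate block, 7 members were called lower, and the counts over all genes were 3001 lower and 3681 higher (2958 and 3618 without it). Median-ratio scaling gave 3277 lower and 3255 higher, and the 7 members fell under it too. With 2 libraries per genotype the spread is poorly known.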
